A study of Mus musculus with 4 samples.

Results

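The cells described here are the Cd4-led T cells that the depositors' clustering of tumour-infiltrating CD45+ cells numbered 3. They were taken by that cluster number from the deposited cell table and matched to the count matrices by library and by the barcode before the dash. Cluster 3 held 1215 of the 14491 listed cells (8.38%) and 31.7% of the 3829 cells in the 5 T cell clusters, which were numbered 3, 6, 8, 9 and 10. The control library gave 331 of these cells, against 221 under anti-PD-1, 243 under anti-CTLA-4 and 420 under both. The cells held the markers of the label, which is a description and no test, since the clusters were drawn from the expression of these cells. With every cell thinned to 1000 UMIs (unique molecular identifiers, 1 per captured transcript), 34.6% of cluster 3 cells held a Cd4 UMI, 57.4% a Cd3e UMI and 81.4% a Cd3d UMI. The macrophage clusters 1 and 2, in which T cell genes are background, gave 0.321%, 0.748% and 1.26%. Every share of macrophages with a UMI given below is of these clusters. Median depth was 2002 UMIs in cluster 3 and 3519 in macrophage clusters 1 and 2. Without thinning, 56.9%, 80.3% and 94.7% of cluster 3 cells held a UMI of the 3 genes. Of the 1215 cells, 82 held any Cd8a or Cd8b1 UMI (6.75%).

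The study transplanted tumours into wild-type mice of strain 129S6 and sorted live CD45+ cells, which are the leukocytes, from the collagenase-digested tumours. Control mice received a rat IgG2a isotype antibody, which has no target in the mouse. One group received clone 9D9 against CTLA-4, another clone RMP1-14 against PD-1, and the last both antibodies together. Injections of 200 µg were given on days 3, 6 and 9 after transplant. Each group was 1 library made with the first version of the Chromium 3′ kit, and how many mice lie behind each library is not stated in the labels. No difference between groups could therefore be tested against the spread between animals. Every interval below is a 95% interval that covers counting error only. The 3 treated libraries are set against the same control library, so that a control library that stood apart would move all 3 ratios together.

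CD4 T cells recognise peptides on MHC class II and act mainly through cytokines and surface ligands. Conventional helper cells differ by the cytokines they make: interferon gamma marks the T helper 1 type, interleukins 4, 5 and 13 the T helper 2 type, and interleukin 17 the T helper 17 type. Regulatory CD4 T cells carry the transcription factor Foxp3 and restrain other T cells. Both PD-1 and CTLA-4 restrain T cells, which place them on their surface after activation. Antibodies that block them are used to release antitumour T cell responses. In tumours, repeated antigen contact induces further receptors such as Lag3, Havcr2 (TIM-3) and the TNF receptor family members Tnfrsf4 (OX40), Tnfrsf9 (4-1BB) and Tnfrsf18 (GITR).

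Summed over its cells, cluster 3 gave 677743 UMIs in control, 519203 in anti-PD-1, 628371 in anti-CTLA-4 and 1031665 in combination. Median UMIs per cell were 1762, 2098, 2276 and 2041.5 in that order, which is the order of all 4-value series below. Levels are given as CPM, the gene's UMIs per 1000000 UMIs of the cells summed. Differences are log2 ratios of CPM, where 1 is a 2-fold higher level. Of the 1215 cells, 12 carried a barcode that another library also held. Transcripts of other cell types were present. The 6 CD8 T cell markers summed to 3647, 4440, 3254 and 3113 CPM, of which Nkg7 alone gave 3007, 4097, 2795 and 2640.4. All 14 macrophage and monocyte markers were detected, and their summed level was 2336, 3862, 1474 and 2396 CPM. Cells with 5 or more myeloid UMIs made up 21.1%, 27.1%, 22.6% and 30.2%. The 10 natural killer cell markers summed to 418, 917, 325 and 478 CPM, and the B cell markers Cd79a, Ms4a1, Ebf1 and Pax5 were at 0 in all 4 libraries. In the macrophage clusters 1, 2, 4, 7 and 15 together the natural killer markers summed to 7965.5, 8318, 7726 and 7372 CPM, so their sum is no measure of natural killer cells here. Where leaving out the myeloid-positive cells moved a gene's ratio by over 1.5 times or turned its direction, the ratio without them is given beside it, and their part in the other values was not tested further.

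Among T cells, cluster 3 was set apart by helper, residency and activation genes and, against cluster 9, by few dividing cells. Since the clusters were drawn from the expression of these cells, this contrast is a description and carries no test. Cd4, the co-receptor for MHC class II, stood at 393 CPM in cluster 3 against 91.1, 34.6, 65.6 and 143 in clusters 6, 8, 9 and 10, and the log2 ratio over all other T cells was 3.31, 2.99, 2.28 and 1.54 in the 4 libraries. Cd8b1, the co-receptor chain of cytotoxic T cells, was lowest in cluster 3, with 60.9 CPM in cluster 3 against 179.6, 1273, 403 and 84.2. Genes with the highest ratios over the other T clusters in every library were Csf1, Serpinb1a, Furin, Ifitm3, Orai1, Ifitm2, Cxcr6, Bhlhe40, Dusp2, Fam213a, Uhrf2, Lag3, Cd82, Sdf4 and Cd4. Csf1, the growth factor of macrophages, stood at 203 CPM in cluster 3 against 22.3, 65.4, 24.9 and 26.9. Serpinb1a, an inhibitor of neutrophil-type serine proteases, stood at 491 CPM in cluster 3 against 96.5, 53.7, 97.7 and 23.6. Cxcr6, a chemokine receptor of tissue T cells, stood at 2233 CPM in cluster 3 against 819, 1517, 663 and 393. These 3 genes were higher in cluster 3 than in each of the other 4 clusters.

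Furin, a proprotein convertase that cleaves precursors such as that of TGF-beta, stood at 316 CPM in cluster 3 against 90.5, 35.8, 39.4 and 110.0 in clusters 6, 8, 9 and 10. Bhlhe40, a transcription factor that supports helper cell cytokine production, stood at 467 CPM in cluster 3 against 153, 203, 197 and 125. Lag3, an inhibitory receptor that binds MHC class II, stood at 841 CPM in cluster 3 against 137, 599.8, 310.2 and 409.6, and Pdcd1, which encodes PD-1, at 345 CPM in cluster 3 against 108, 251, 222 and 107. All 4 genes were highest in cluster 3. Tnfrsf4 was not: it stood at 918 CPM in cluster 3 against 198, 64.8, 268 and 1809, with its highest level in cluster 10, where Foxp3 also peaked at 176 CPM. Foxp3 itself stood at 5.95 CPM in cluster 3 against 3.38, 3.70, 8.51 and 176. The lowest ratios against the other T clusters were those of the cell division genes Birc5, Nusap1, Ube2c, Hist1h2ap, Rrm2, Cdc20, Shcbp1, Tacc3, Ccna2 and 2810417H13Rik. Mki67, a marker of dividing cells, stood at 9.45 CPM in cluster 3 against 9.45, 8.64, 208 and 12.3, so that cluster 9 held most of it. Only 10 of the 1215 cells counted as dividing.

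**Figure D1:**
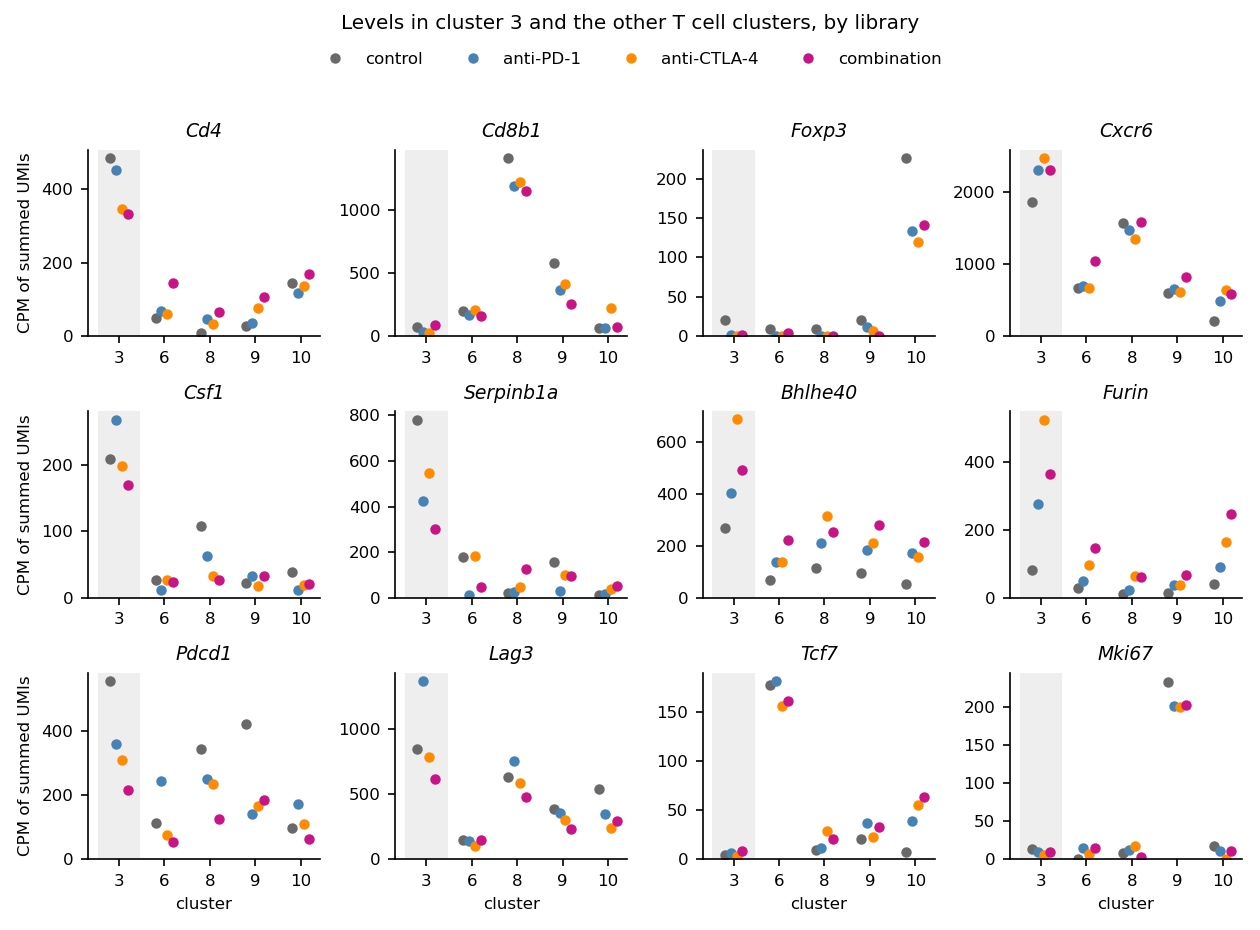
Level in CPM of summed UMIs (linear y axes from 0) of 12 genes in the 5 T cell clusters (x axis), with 1 point per library, coloured by group. Cluster 3 (shaded) is highest for Cd4, Cxcr6, Csf1, Serpinb1a, Bhlhe40 and Furin over all libraries, while Cd8b1 peaks in cluster 8, Foxp3 in cluster 10, Tcf7 in cluster 6 and Mki67 in cluster 9.

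Programmes of several other CD4 states were near or at the detection floor. Foxp3 gave 14, 1, 0 and 2 UMIs in the 4 libraries, and after thinning a UMI was seen in 0.906, 0, 0 and 0% of cells. Il17a, the cytokine of T helper 17 cells, gave no UMI in any library. Cxcr5, the receptor that takes follicular helper cells to B cell areas, gave 0, 0, 0 and 1 UMIs, and Bcl6, the master factor of those cells, gave 1, 1, 1 and 0. Tcf7, a factor of naive and stem-like T cells, gave 3, 3, 2 and 9 UMIs. A count of 0 allows up to 3 UMIs, which is 4.43, 5.78, 4.77 and 2.91 CPM in the 4 libraries, so that genes at 0 were not detectable at this depth rather than shown to be absent. Il4, a T helper 2 cytokine, gave 12, 8, 5 and 8 UMIs, and Il13, another, gave 6, 10, 10 and 19. All control UMIs of both lay in a single cell. Il10, a suppressive cytokine, gave 22, 5, 15 and 30 UMIs, with 77.3% of the control UMIs in 1 cell. Il2, the T cell growth factor, was seen in 2.00% of thinned cells against 1.47% in macrophages, which is background. Il21 gave 5, 5, 11 and 16 UMIs.

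The share that cluster 3 took of all listed CD45+ cells was 8.73% (7.85 to 9.67) in control, 6.47% (5.67 to 7.34) in anti-PD-1, 7.28% (6.43 to 8.22) in anti-CTLA-4 and 10.6% (9.70 to 11.7) in combination. Against control, the ratio of shares was 0.741 (0.629 to 0.873) under anti-PD-1, 0.835 (0.712 to 0.978) under anti-CTLA-4 and 1.22 (1.06 to 1.40) under both. The combination share was 1.65 (1.41 to 1.92) times that with anti-PD-1 and 1.46 (1.26 to 1.70) times that with anti-CTLA-4. Within the T cells the order was different. Cluster 3 made up 29.9%, 31.8%, 31.5% and 33.4% of them, and the ratios to control were 1.06 (0.923 to 1.22), 1.05 (0.918 to 1.21) and 1.12 (0.993 to 1.26). The lower share in the single-antibody libraries was thus present over all CD45+ cells, while over T cells all 3 intervals included 1. A gate that did not use the clusters, with Cd4 and CD3 UMIs and no Cd8 UMI, took 7.36%, 5.91%, 6.18% and 9.84% of listed cells. Over the listed cells with fewer than 5 myeloid UMIs, which leaves out most macrophages, cluster 3 took 28.5%, 23.8%, 26.9% and 28.8%, and the log2 ratio of the combination share to control went from 0.29 to 0.017. More cells of this cluster and fewer of the other leukocytes cannot be told apart in a share.

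A second deposited table clustered the lymphoid cells alone, and all 1215 cells of cluster 3 were in it. Of its clusters, 2 took most of them: lymphoid cluster 2 with 535 cells and lymphoid cluster 4 with 517. Of the cells in those clusters, 94.5% and 94.7% came from cluster 3, so they are subdivisions of it. The leading genes of lymphoid cluster 2 over the rest of cluster 3 were Cd200, Hilpda, Cdkn1a, Sdcbp2, Tnfrsf9 and Ifi27l2a. Cd200 is an inhibitory ligand, Hilpda a lipid droplet protein induced by hypoxia, and Cdkn1a the cell cycle inhibitor p21. Lymphoid cluster 4 was led by Klrc2, Klrd1, Ifitm1, Klrc1, Pld3 and Il7r. Klrd1 (CD94) pairs with Klrc1 (NKG2A) and Klrc2 (NKG2C) to form receptors best known on natural killer cells, and Il7r is the receptor chain for the survival cytokine interleukin 7. Lymphoid cluster 1, with 95 cells, was led by Klf2, Commd8, Cd69 and the MHC class II genes H2-Ab1, H2-Aa and Cd74. Klf2 drives exit from tissue, and macrophages express the MHC class II genes, whose part in this cluster was not tested. Median UMIs were 2317, 1875 and 1479 in lymphoid clusters 2, 4 and 1.

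The balance of these subdivisions differed between control and every treated library. Lymphoid cluster 4 made up 62.2% of control cluster 3 cells (206 of 331), 48.0% under anti-PD-1, 42.4% under anti-CTLA-4 and 24.3% under both (102 of 420). Its ratio to control was 0.771 (0.656 to 0.905), 0.681 (0.575 to 0.806) and 0.390 (0.323 to 0.471). Lymphoid cluster 2 showed the reverse order. It made up 23.6% of control cells (78 of 331), 43.9%, 49.8% and 56.9% (239 of 420). The ratios to control were 1.86 (1.46 to 2.38), 2.11 (1.68 to 2.66) and 2.41 (1.96 to 2.98). In cells of all those listed, lymphoid cluster 2 took 2.06%, 2.84%, 3.63% and 6.06%, and lymphoid cluster 4 took 5.43%, 3.10%, 3.09% and 2.59%. The same order was thus seen with all CD45+ cells as the base. Lymphoid cluster 1 took 3.63%, 4.98%, 5.35% and 14.0% of cluster 3, with a combination ratio of 3.87 (2.12 to 7.09). Lymphoid cluster 7 held 21 control cells (6.34%) and 3, 1 and 1 cells in the other libraries, and lymphoid cluster 5 held 10 control cells (3.02%) and 1, 1 and 5. These clusters were drawn from the same genes that differ between the libraries, so the shares describe the cells and support no gene below.

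**Figure D2:**
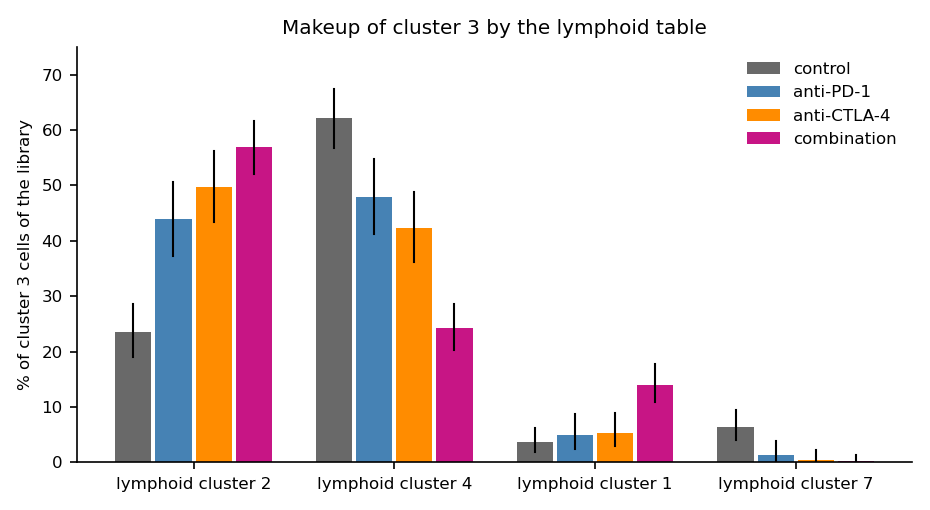
Share of cluster 3 cells of each library (y axis, percent) that the lymphoid table places in its clusters 2, 4, 1 and 7 (x axis), with bars coloured by group and exact 95% binomial intervals as black lines. Lymphoid cluster 2 stands at 23.6% in control and 56.9% in combination, and lymphoid cluster 4 at 62.2% and 24.3%.

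Of the receptors that the antibodies target, Pdcd1 was lower in all 3 treated libraries and Ctla4 was higher in both libraries that had received anti-CTLA-4. Pdcd1 stood at 559 CPM in control, 362 in anti-PD-1, 310.3 in anti-CTLA-4 and 216 in combination cells. The log2 ratios to control were -0.63 (-0.89 to -0.37) in anti-PD-1, -0.85 (-1.11 to -0.60) in anti-CTLA-4 and -1.37 (-1.62 to -1.13) in combination cells. After thinning, 36.6, 27.2, 23.8 and 17.3% of cells held a Pdcd1 UMI against 0.107% of macrophages. Control was the highest library and combination the lowest, and no treated interval reached 0. Ctla4 stood at 235 CPM in control, 218 in anti-PD-1, 299 in anti-CTLA-4 and 364 in combination cells, with ratios of -0.11 (-0.47 to 0.25) in anti-PD-1, 0.35 (0.038 to 0.66) in anti-CTLA-4 and 0.63 (0.36 to 0.91) in combination cells. The anti-PD-1 interval included 0 and the other 2 lay above it, and the anti-PD-1 ratio was 0.12 without the myeloid-positive cells. Over the cells with a Cd4 UMI and no Cd8 UMI of all 5 T cell clusters, which include the Foxp3-bearing cluster 10, the Ctla4 ratio turned to -0.39 with anti-CTLA-4 and -0.28 in the combination library. The transcripts were counted here, and the antibodies act on the proteins.

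The other inhibitory receptors did not share a direction. Lag3 was highest with anti-PD-1 and lowest with the combination, at 843 CPM in control, 1367 in anti-PD-1, 783 in anti-CTLA-4 and 612 in combination cells. Its ratios were 0.70 (0.54 to 0.86) in anti-PD-1, -0.11 (-0.28 to 0.071) in anti-CTLA-4 and -0.46 (-0.63 to -0.30) in combination cells. Havcr2 was higher in all 3 treated libraries, at 105 CPM in control, 187 in anti-PD-1, 173 in anti-CTLA-4 and 185 in combination cells, with ratios of 0.83 (0.38 to 1.30) in anti-PD-1, 0.72 (0.28 to 1.18) in anti-CTLA-4 and 0.82 (0.42 to 1.24) in combination cells. A thinned cell held a Havcr2 UMI in 7.85, 14.7, 17.1 and 14.6% of cases against 4.20% in macrophages, which also express this gene. Tigit, a receptor for nectin-type ligands, gave only 7, 10, 11 and 20 UMIs. Cd160, a receptor shared with natural killer cells, gave 30, 13, 27 and 11 UMIs and Klrg1, a receptor of late effector cells, gave 16, 7, 30 and 63. Of the 19 genes on the inhibitory receptor list, 6 of 13 measured members were above control under anti-PD-1, 5 of 12 under anti-CTLA-4 and 7 of 15 in the combination library. The list's median log2 ratios were -0.11, -0.073 and -0.14, beside -0.0064, -0.045 and -0.034 over all genes measured. The anti-PD-1 median was 0.12 without the myeloid-positive cells and 0.22 over the cells with a Cd4 UMI and no Cd8 UMI.

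Of the TNF receptor family members named here, Tnfrsf4 and Tnfrsf18 were lower with the combination and Tnfrsf9 was not. Tnfrsf4 stood at 1000.4 CPM in control, 1096 in anti-PD-1, 931 in anti-CTLA-4 and 766 in combination cells, with ratios of 0.13 (-0.032 to 0.29) in anti-PD-1, -0.10 (-0.27 to 0.058) in anti-CTLA-4 and -0.39 (-0.54 to -0.24) in combination cells. Over the cells with a Cd4 UMI and no Cd8 UMI of all 5 T cell clusters, here called the wider gate, the combination ratio was -1.04. Tnfrsf18 stood at 946 CPM in control, 909 in anti-PD-1, 724 in anti-CTLA-4 and 669.8 in combination cells, with ratios of -0.057 (-0.23 to 0.12) in anti-PD-1, -0.38 (-0.56 to -0.21) in anti-CTLA-4 and -0.50 (-0.65 to -0.34) in combination cells. In both, the combination interval lay below 0 and the anti-PD-1 interval included 0. Tnfrsf9, a receptor that follows recent activation, was highest with anti-PD-1, at 127 CPM in control, 214 in anti-PD-1, 159 in anti-CTLA-4 and 161 in combination cells. The ratios were 0.75 (0.33 to 1.18) in anti-PD-1, 0.33 (-0.10 to 0.76) in anti-CTLA-4 and 0.34 (-0.042 to 0.74) in combination cells. With cells thinned they were 1.52, 0.94 and 1.07, and without the myeloid-positive cells 1.55, 1.04 and 1.22. Over the cells with a Cd4 UMI and no Cd8 UMI of all 5 T cell clusters they were -0.053, -0.68 and -0.44, so its direction depended on which CD4 cells were counted. Icos, a costimulator that helper cells acquire on activation, stood at 491, 414, 401 and 502 CPM, with ratios of -0.25 (-0.50 to 0.0050) in anti-PD-1, -0.29 (-0.53 to -0.053) in anti-CTLA-4 and 0.030 (-0.17 to 0.23) in combination cells. With cells thinned its anti-CTLA-4 ratio was 0.021. Cd40lg, the helper ligand that activates antigen-presenting cells, gave 14, 10, 22 and 47 UMIs and a combination ratio of 1.11 (0.26 to 2.12), or 0.25 with cells thinned. Il2ra (CD25), the interleukin 2 receptor chain, stood at 44.3, 46.2, 54.1 and 53.3 CPM, with ratios of 0.068, 0.29 and 0.26, and over the wider gate of all 5 T cell clusters the last 2 were -0.79 and -1.03. Slamf6, a receptor of less differentiated T cells, gave 26, 22, 28 and 82 UMIs and a combination ratio of 1.03 (0.40 to 1.75). Over the costimulatory list, 6 of 16, 7 of 17 and 9 of 18 measured members were above control, with medians of -0.088, -0.10 and 0.014, the second 0.074 as a mean over cells.

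**Figure D3:**
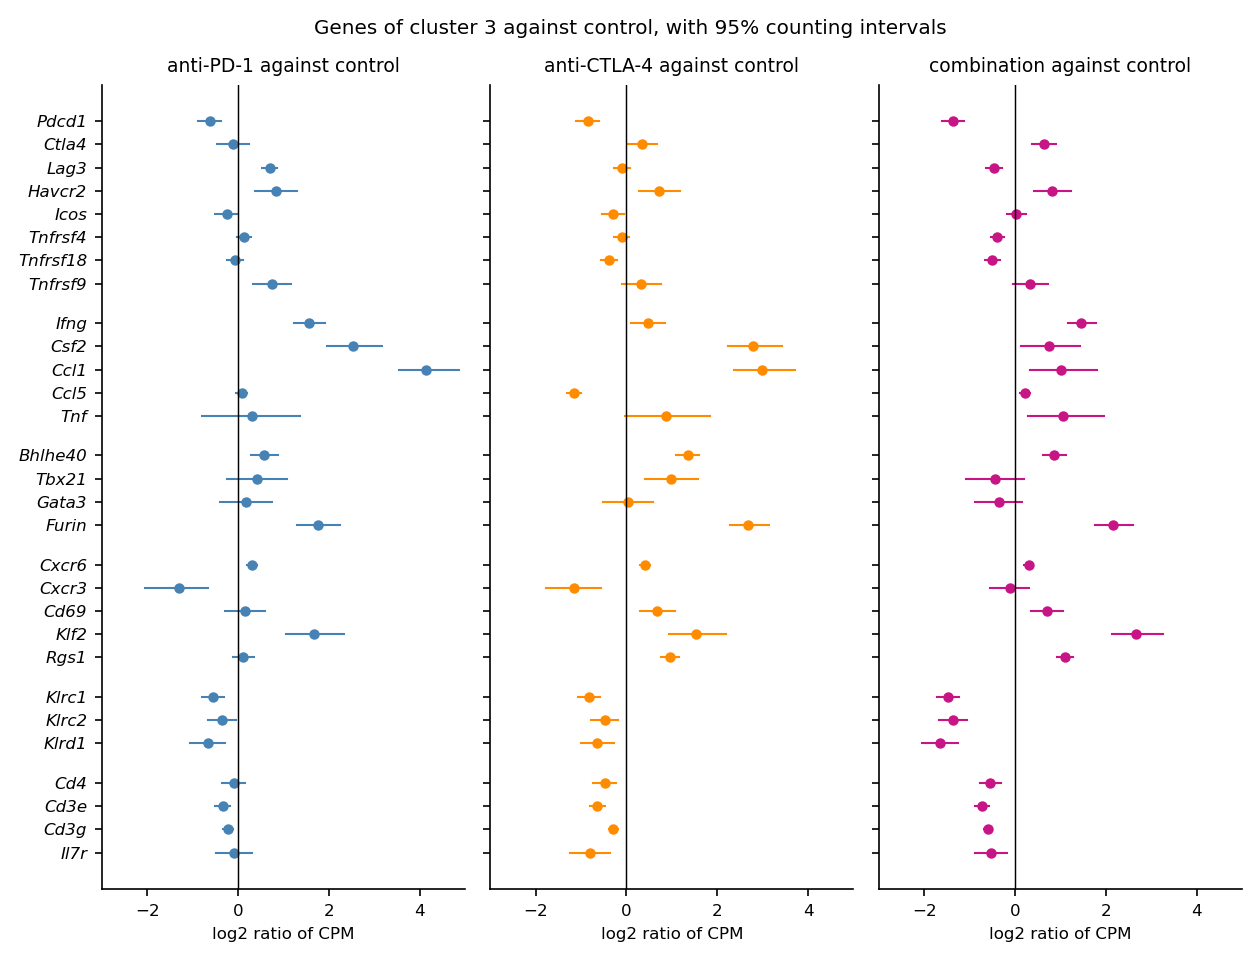
Log2 ratio of CPM in cluster 3 against control (x axis) for 29 genes grouped by role (y axis), with 1 panel per treated library, points for the ratio and lines for the 95% counting interval. Pdcd1, Cd3e, Klrc1, Klrc2 and Klrd1 lie left of 0 in all 3 panels, Furin and Klf2 lie right of 0 in all 3, and Csf2 lies farther right with each single antibody than with the combination.

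Among cytokines, Csf2 and Ccl1 were higher in both single-antibody libraries than in control and in the combination. Csf2 encodes GM-CSF, a cytokine that acts on myeloid cells. It stood at 42.8 CPM in control, 250.4 in anti-PD-1, 298 in anti-CTLA-4 and 72.7 in combination cells, with ratios of 2.53 (1.96 to 3.18) in anti-PD-1, 2.78 (2.23 to 3.42) in anti-CTLA-4 and 0.75 (0.13 to 1.44) in combination cells. A Csf2 UMI was seen in 2.42, 7.83, 7.92 and 3.16% of thinned cells and in none of the thinned macrophages. The ratio of combination cells was -1.78 (-2.21 to -1.36) to anti-PD-1 and -2.03 (-2.44 to -1.64) to anti-CTLA-4 cells. Both intervals lay below 0. Leaving out the myeloid-positive cells, the combination ratio to control was 1.57, and the ratios to the single-antibody libraries were -1.06 and -1.04. Ccl1, a chemokine for the receptor Ccr8, stood at 32.5 CPM in control, 587 in anti-PD-1, 261 in anti-CTLA-4 and 66.9 in combination cells. The ratios were 4.15 (3.55 to 4.87) in anti-PD-1, 2.98 (2.36 to 3.72) in anti-CTLA-4 and 1.02 (0.33 to 1.81) in combination cells, with 36.4%, 43.9%, 39.6% and 31.9% of its UMIs in a single cell of each library. Without that cell they were 3.95, 2.89 and 1.11. Without the myeloid-positive cells they were 5.01, 2.00 and 1.66, and with lymphoid clusters 2 and 4 at equal weight the combination ratio was 0.19.

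Ifng, the T helper 1 cytokine, stood at 158 CPM in control, 468 in anti-PD-1, 219.6 in anti-CTLA-4 and 437 in combination cells. The ratios were 1.56 (1.23 to 1.91) in anti-PD-1, 0.47 (0.10 to 0.85) in anti-CTLA-4 and 1.46 (1.16 to 1.79) in combination cells. A single cell held 37.9% of its UMIs in anti-PD-1 and 34.1% in combination, and without the top cells the ratios were 0.98, 0.36 and 0.96. With lymphoid clusters 2 and 4 at equal weight they were 0.71, 0.17 and 0.39, and without the myeloid-positive cells the anti-PD-1 ratio was 2.31. After thinning, 11.8, 15.2, 12.5 and 15.6% of cells held an Ifng UMI against 0.134% of macrophages, so the shares of cells lay closer together than the summed levels. Ccl5, a chemokine of effector T cells, had its lowest summed level with anti-CTLA-4, at 1617 CPM in control, 1708 in anti-PD-1, 727 in anti-CTLA-4 and 1875 in combination cells. The ratios were 0.079 (-0.050 to 0.21) in anti-PD-1, -1.15 (-1.31 to -0.99) in anti-CTLA-4 and 0.21 (0.11 to 0.32) in combination cells, and without the myeloid-positive cells the anti-PD-1 and combination ratios were 1.47 and 1.44. With cells thinned the anti-CTLA-4 ratio was -0.38, and 14.8, 23.04, 19.2 and 28.0% of cells held a Ccl5 UMI against 36.9% of macrophages. The macrophage share was above that of cluster 3 in every library, so Ccl5 UMIs from macrophages cannot be told apart from those of the T cells in these shares. The anti-CTLA-4 share lay above that of control while the summed level lay below it, and no order is read from them. Tnf gave 17, 16, 29 and 55 UMIs, with a combination ratio of 1.06 (0.28 to 1.97), which was 0.29 over the cells with a Cd4 UMI and no Cd8 UMI and -0.23 over such cells of all 5 T cell clusters. Csf1 stood at 208, 268, 197 and 169.6 CPM, with ratios of 0.36, -0.076 and -0.30. Over the cytokine list, 12 of 18, 9 of 17 and 14 of 21 measured members were above control, with medians of 0.30, 0.045 and 0.41. Its medians were 0.49, -0.17 and -0.051 within lymphoid cluster 2 and -0.038, 0.11 and 0.16 within lymphoid cluster 4. The T helper 1 list gave 15 of 22, 10 of 22 and 15 of 22, with medians of 0.27, -0.073 and 0.26. Within lymphoid cluster 2 the T helper 1 medians were 0.33, 0.16 and 0.34, and within lymphoid cluster 4 they were 0.053, -0.22 and -0.24. The combination median of each list thus lay below control in 1 of these subdivisions. Of its receptors for interleukin 12, Il12rb1 had a combination ratio of 0.92 (0.13 to 1.84) and Il12rb2 one of -0.92 (-1.39 to -0.45).

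Transcription factors of effector cells differed gene by gene. Bhlhe40 was higher in all 3 treated libraries, at 270.0 CPM in control, 404 in anti-PD-1, 687 in anti-CTLA-4 and 492 in combination cells. Its ratios were 0.58 (0.29 to 0.88) in anti-PD-1, 1.35 (1.10 to 1.61) in anti-CTLA-4 and 0.86 (0.62 to 1.12) in combination cells. Over the cells with a Cd4 UMI and no Cd8 UMI its anti-PD-1 ratio was 0.052. The share of thinned cells with a UMI was 21.5, 33.2, 39.6 and 36.0% against 2.89% of macrophages. Tbx21, the T helper 1 master factor T-bet, had its highest summed level with anti-CTLA-4, at 60.5 CPM in control, 80.9 in anti-PD-1, 119 in anti-CTLA-4 and 44.6 in combination cells. Its ratios were 0.42 (-0.24 to 1.08) in anti-PD-1, 0.97 (0.41 to 1.57) in anti-CTLA-4 and -0.44 (-1.08 to 0.20) in combination cells, with 36.0% of the anti-CTLA-4 UMIs in 1 cell and a ratio of 0.44 without it. Without the top cells the anti-PD-1 ratio was 0.46, and without the myeloid-positive cells the combination ratio was 0.077. After thinning, 6.34, 7.83, 5.42 and 4.38% of cells held a Tbx21 UMI against 0.107% of macrophages. Gata3, the T helper 2 master factor, stood at 87.1, 98.2, 89.1 and 67.9 CPM, and its ratios of 0.18, 0.034 and -0.36 all had intervals that included 0. Tox, a factor of chronically stimulated T cells, gave 21, 3, 13 and 16 UMIs. Ikzf2, the Helios factor common in regulatory T cells, gave 54, 9, 81 and 36 UMIs, with 43.2% of the anti-CTLA-4 UMIs in 1 cell. Its ratios were -2.14 (-3.40 to -1.17) in anti-PD-1, 0.69 (0.18 to 1.22) in anti-CTLA-4 and -1.18 (-1.84 to -0.56) in combination cells. Without the top cell the anti-CTLA-4 ratio was 0.019, and with cells thinned the other 2 were -0.84 and -0.18. Rora, a nuclear receptor, had a combination ratio of 0.60 (0.13 to 1.09). The list of effector and exhaustion factors gave 9 of 16, 9 of 16 and 8 of 17 members above control, with medians of 0.0068, 0.14 and -0.026, close to those of all genes. Over the wider gate the anti-CTLA-4 median was -0.18.

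Genes that T cell receptor signalling induces were on balance higher in the treated libraries. The list gave 14 of 20 measured members above control under anti-PD-1, 18 of 20 under anti-CTLA-4 and 17 of 22 in the combination library. Its medians were 0.46, 0.72 and 0.76, beside -0.0064, -0.045 and -0.034 for all genes. Over the cells with a Cd4 UMI and no Cd8 UMI of all 5 T cell clusters the anti-PD-1 median of the list was -0.074, on the other side of control. Among members with 50 or more counts, 4 of 12, 8 of 14 and 12 of 18 were at least 1.5-fold higher. Over all genes with such counts the shares at least 1.5-fold higher were 11.2% under anti-PD-1, 9.42% under anti-CTLA-4 and 10.4% under both, and the shares at least 1.5-fold lower were 9.92%, 11.5% and 10.4%. Dusp5, a phosphatase that ends ERK signalling, stood at 88.5 CPM in control, 135 in anti-PD-1, 231 in anti-CTLA-4 and 229 in combination cells, with ratios of 0.61 (0.089 to 1.13) in anti-PD-1, 1.38 (0.94 to 1.84) in anti-CTLA-4 and 1.36 (0.96 to 1.80) in combination cells. Its anti-CTLA-4 ratio was 0.57 over the wider gate. Ier3, an early response gene, gave 13, 19, 34 and 77 UMIs and a combination ratio of 1.92 (1.10 to 2.93), or 1.31 without the myeloid-positive cells. Cd69, an early activation marker that also holds T cells in tissue, stood at 140.2, 156, 224 and 229 CPM. Its ratios were 0.16 (-0.29 to 0.60) in anti-PD-1, 0.68 (0.29 to 1.07) in anti-CTLA-4 and 0.70 (0.36 to 1.07) in combination cells, and without the myeloid-positive cells they were 1.22, 1.46 and 1.47. Pdcd1 is on this list too and went the other way.

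The immediate early list, which tissue digestion can also induce, lay on the same side of control over the whole of cluster 3. It gave 18 of 22, 14 of 22 and 19 of 23 members above control, with medians of 0.45, 0.26 and 0.54. Within lymphoid cluster 2 its medians were 0.34, 0.25 and 0.62, and within lymphoid cluster 4 they were 0.21, -0.20 and 0.34. With anti-CTLA-4 the list thus lay below control within lymphoid cluster 4, with 7 of 19 members above it. Junb, a subunit of the AP-1 factor, stood at 879 CPM in control, 998 in anti-PD-1, 1774 in anti-CTLA-4 and 1767 in combination cells, with ratios of 0.18 (0.0094 to 0.35) in anti-PD-1, 1.01 (0.87 to 1.16) in anti-CTLA-4 and 1.01 (0.87 to 1.14) in combination cells. With lymphoid clusters 2 and 4 at equal weight its anti-PD-1 ratio was -0.023, and over the wider gate its anti-CTLA-4 ratio was 0.37. Ier2 stood at 177, 272, 288 and 381 CPM, with ratios of 0.62 (0.26 to 0.98) in anti-PD-1, 0.70 (0.36 to 1.05) in anti-CTLA-4 and 1.10 (0.81 to 1.41) in combination cells. Fosb gave 12, 16, 24 and 55 UMIs and a combination ratio of 1.54 (0.67 to 2.63), which was -0.25 over the cells with a Cd4 UMI and no Cd8 UMI of all 5 T cell clusters. The part of digestion in these values was not tested.

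Genes of glycolysis and the hypoxia response were higher with anti-CTLA-4 and the combination in most measured members. The list gave 19 of 24 above control under anti-PD-1, 23 of 26 under anti-CTLA-4 and 25 of 27 in the combination library, with medians of 0.27, 0.50 and 0.48. The members at least 1.5-fold higher were 2 of 19, 4 of 22 and 8 of 22, beside 11.2%, 9.42% and 10.4% of all genes. The anti-PD-1 count is close to that share. Hilpda stood at 103 CPM in control, 275 in anti-PD-1, 529.9 in anti-CTLA-4 and 426 in combination cells, with ratios of 1.41 (0.99 to 1.85) in anti-PD-1, 2.35 (1.98 to 2.75) in anti-CTLA-4 and 2.04 (1.68 to 2.43) in combination cells. Ankrd37, a target of the hypoxia-inducible factor HIF-1, gave 20, 27, 46 and 111 UMIs and ratios of 0.81 (-0.071 to 1.73) in anti-PD-1, 1.29 (0.52 to 2.15) in anti-CTLA-4 and 1.84 (1.17 to 2.63) in combination cells. Ero1l, an oxidase of protein folding, gave 29, 32, 76 and 94 UMIs and ratios of 0.52 (-0.24 to 1.30) in anti-PD-1, 1.48 (0.86 to 2.17) in anti-CTLA-4 and 1.07 (0.48 to 1.74) in combination cells. Its anti-CTLA-4 ratio was 0.66 over the cells with a Cd4 UMI and no Cd8 UMI. Control was the lowest library for all 3 genes. The anti-PD-1 interval included 0 for Ankrd37 and Ero1l. Hilpda leads lymphoid cluster 2, whose share differed between the libraries, so part of its ratio restates that share, and the values within the subdivisions are given further on.

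Promoters of 2 of these genes are shown because HIF-1, which many genes of this list are known to follow, binds a short core, ACGTG. RefSeq windows of 250 bases before to 50 bases after a gene's start (build GRCm38.p6) were available for 28 of the 30 listed genes. At least 1 window held ACGTG on either strand in 22 of those 28 genes (78.6%), against 5886 of 27025 genes with a window (21.8%). Counted by windows, it was 25 of 41 (61.0%) against 6447 of 32851 (19.6%). The windows of Hilpda (chr6:29272376-29272675, plus strand, 1 match) and Ankrd37 (chr8:45999801-46000100, minus strand, 2 matches) read as follows, 5′ to 3′, with ACGTG on the printed strand in capitals.
Hilpda: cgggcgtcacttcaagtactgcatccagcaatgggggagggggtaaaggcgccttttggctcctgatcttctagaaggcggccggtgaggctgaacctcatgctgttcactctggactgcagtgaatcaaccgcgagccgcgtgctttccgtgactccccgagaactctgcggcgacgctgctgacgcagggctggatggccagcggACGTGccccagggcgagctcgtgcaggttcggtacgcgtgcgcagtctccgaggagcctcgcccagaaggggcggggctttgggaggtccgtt
Ankrd37: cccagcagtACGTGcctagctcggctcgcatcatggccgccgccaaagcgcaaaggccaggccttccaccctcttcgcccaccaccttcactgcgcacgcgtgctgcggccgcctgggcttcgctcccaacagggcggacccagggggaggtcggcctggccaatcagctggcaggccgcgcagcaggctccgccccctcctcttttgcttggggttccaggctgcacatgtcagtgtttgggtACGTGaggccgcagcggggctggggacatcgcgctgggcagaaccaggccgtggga
Since the list was put together from known hypoxia and glycolysis genes, its share of windows with the core follows from that choice and bears on no ratio above. A match is a run of letters and not a measured binding site, and no factor binding was assayed in these cells.

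**Figure D4:**
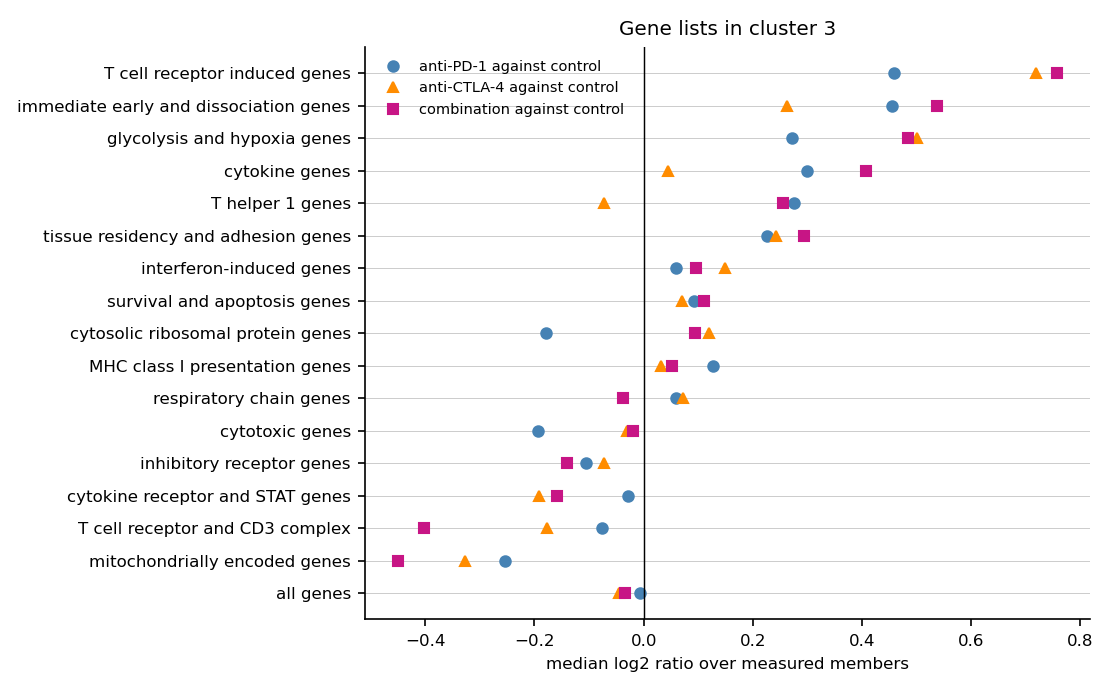
Median log2 ratio against control over the measured members of 16 gene lists and of all genes (x axis, 1 row per list), with 1 symbol per treated library. The T cell receptor induced list lies at 0.46, 0.72 and 0.76, the T cell receptor and CD3 complex at -0.075, -0.18 and -0.40, and all genes between -0.045 and -0.0064.

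Cd3e and Cd3g of the antigen receptor complex were lower in all 3 treated libraries, while their list as a whole lay close to the all-gene median with anti-PD-1. The T cell receptor and CD3 complex list gave 5 of 18, 6 of 18 and 3 of 18 measured members above control, with medians of -0.075, -0.18 and -0.40. Cd3e stood at 1126 CPM in control, 889.8 in anti-PD-1, 721 in anti-CTLA-4 and 680.5 in combination cells, with ratios of -0.34 (-0.51 to -0.17) in anti-PD-1, -0.64 (-0.81 to -0.47) in anti-CTLA-4 and -0.73 (-0.88 to -0.58) in combination cells. Cd3g stood at 2619 CPM in control, 2259 in anti-PD-1, 2145 in anti-CTLA-4 and 1737 in combination cells, with ratios of -0.21 (-0.32 to -0.11) in anti-PD-1, -0.29 (-0.39 to -0.18) in anti-CTLA-4 and -0.59 (-0.69 to -0.50) in combination cells. For both genes all 3 intervals lay below 0, and combination cells were lowest. Cd4 stood at 484 CPM in control, 453 in anti-PD-1, 347 in anti-CTLA-4 and 332 in combination cells, with ratios of -0.10 (-0.34 to 0.15) in anti-PD-1, -0.48 (-0.73 to -0.23) in anti-CTLA-4 and -0.54 (-0.76 to -0.32) in combination cells. Its thinned share of cells was 41.7, 33.2, 32.9 and 30.7%. Themis, a signalling protein of thymic selection, was an exception, with a combination ratio of 0.70 (0.32 to 1.11). Only 1 of 18, 1 of 18 and 2 of 18 members of the list were at least 1.5-fold lower, against 9.92%, 11.5% and 10.4% of all genes. Summed over the 8 T cell markers measured, the level was 8840, 8062, 7109 and 6723 CPM. The constant region genes of the T cell receptor were not analysed here.

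Klrc1, Klrc2 and Klrd1, chosen after their values were seen, were lower in all 3 treated libraries. Klrc1 stood at 611 CPM in control, 419.9 in anti-PD-1, 347 in anti-CTLA-4 and 220.0 in combination cells, with ratios of -0.54 (-0.78 to -0.30) in anti-PD-1, -0.81 (-1.06 to -0.58) in anti-CTLA-4 and -1.47 (-1.71 to -1.24) in combination cells. After thinning, 37.2, 25.3, 22.5 and 16.1% of cells held a Klrc1 UMI against 0.241% of macrophages. Klrc2 stood at 356 CPM in control, 279 in anti-PD-1, 255 in anti-CTLA-4 and 138 in combination cells, with ratios of -0.35 (-0.66 to -0.045) in anti-PD-1, -0.48 (-0.78 to -0.19) in anti-CTLA-4 and -1.37 (-1.68 to -1.06) in combination cells. Over the wider gate of all 5 T cell clusters its anti-PD-1 ratio was 0.092. Klrd1 stood at 258 CPM in control, 162 in anti-PD-1, 166 in anti-CTLA-4 and 82.4 in combination cells, with ratios of -0.67 (-1.07 to -0.29) in anti-PD-1, -0.64 (-1.01 to -0.28) in anti-CTLA-4 and -1.64 (-2.04 to -1.27) in combination cells. All 9 of these intervals lay below 0, and each gene was lowest with the combination. The summed natural killer marker level, 418, 917, 325 and 478 CPM, did not follow this order. Macrophages held far more of these markers, so their sum does not bear on natural killer cells as a source. These genes lead lymphoid cluster 4, so their ratios include its lower share. Il7r, also of lymphoid cluster 4, stood at 189 CPM in control, 177 in anti-PD-1, 108 in anti-CTLA-4 and 131 in combination cells, with ratios of -0.090 (-0.49 to 0.31) in anti-PD-1, -0.80 (-1.25 to -0.37) in anti-CTLA-4 and -0.53 (-0.89 to -0.17) in combination cells, the first 0.14 without the myeloid-positive cells. Pld3, a lysosomal nuclease, stood at 297, 216, 140.0 and 111 CPM, with ratios of -0.46, -1.08 and -1.41, and -1.05 with anti-PD-1 without the myeloid-positive cells. Serpinb1a, high in this cluster among T cells, stood at 781 CPM in control, 424 in anti-PD-1, 546 in anti-CTLA-4 and 302 in combination cells, with ratios of -0.88 (-1.11 to -0.65) in anti-PD-1, -0.52 (-0.72 to -0.32) in anti-CTLA-4 and -1.37 (-1.57 to -1.16) in combination cells.

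Cytotoxic genes did not share a direction. Gzmb, the granzyme of killer cells, stood at 894 CPM in control, 742 in anti-PD-1, 597 in anti-CTLA-4 and 886 in combination cells, with ratios of -0.27 (-0.46 to -0.083) in anti-PD-1, -0.58 (-0.77 to -0.40) in anti-CTLA-4 and -0.014 (-0.16 to 0.14) in combination cells. Restricted to the cells with a Cd4 UMI and no Cd8 UMI, the ratios of both single-antibody libraries turned to 0.84 and 0.65, and the combination ratio was 0.87. Without the myeloid-positive cells the anti-PD-1 ratio was 0.11 and the combination ratio 0.48. Nkg7, a granule protein, stood at 3007 CPM in control, 4097 in anti-PD-1, 2795 in anti-CTLA-4 and 2640.4 in combination cells, with ratios of 0.45 (0.36 to 0.53) in anti-PD-1, -0.11 (-0.20 to -0.013) in anti-CTLA-4 and -0.19 (-0.27 to -0.10) in combination cells. Gzmc, a granzyme of strongly activated cells, gave 8, 73, 60 and 213 UMIs, of which 52.1%, 41.7% and 47.9% lay in 1 cell of each treated library. Without that cell its ratios were 2.63, 2.35 and 3.29. Gzme, its neighbour in the granzyme family, gave 7, 50, 45 and 25 UMIs and ratios of 3.14 (2.07 to 4.61) in anti-PD-1, 2.71 (1.63 to 4.19) in anti-CTLA-4 and 1.16 (-0.020 to 2.68) in combination cells. Leaving out the myeloid-positive cells, its anti-PD-1 and combination ratios were 3.99 and 2.24. Both granzymes were higher in every treated library than in control, where Gzmc gave 8 UMIs and Gzme 7. These granzymes are close paralogs, so the split of UMIs between them is uncertain. The cytotoxic list gave 8 of 18, 9 of 18 and 9 of 20 members above control, with medians of -0.19, -0.031 and -0.020, and an anti-PD-1 median of 0.15 without the myeloid-positive cells.

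Genes of tissue residency and adhesion lay mostly above control. The chemokine receptor medians lay below control, but above it with cells thinned. The tissue residency and adhesion list gave 15 of 21, 20 of 21 and 17 of 22 measured members above control, with medians of 0.23, 0.24 and 0.29. With anti-CTLA-4 it gave 17 of 19 and a median of 0.41 within lymphoid cluster 2. Within lymphoid cluster 4 it gave 11 of 19 and 0.023. Of all genes measured, 49.5%, 45.6% and 47.1% lay above control. The members at least 1.5-fold higher were 2 of 19, 5 of 19 and 4 of 19, beside 11.2%, 9.42% and 10.4% of all genes. The anti-PD-1 count is close to that share. Cxcr6 stood at 1862 CPM in control, 2299.7 in anti-PD-1, 2473 in anti-CTLA-4 and 2297 in combination cells, with ratios of 0.30 (0.19 to 0.42) in anti-PD-1, 0.41 (0.30 to 0.52) in anti-CTLA-4 and 0.30 (0.20 to 0.40) in combination cells. Rgs1, which dampens chemokine receptor signalling, stood at 506 CPM in control, 547 in anti-PD-1, 982 in anti-CTLA-4 and 1085 in combination cells, with ratios of 0.11 (-0.12 to 0.34) in anti-PD-1, 0.96 (0.76 to 1.15) in anti-CTLA-4 and 1.10 (0.92 to 1.28) in combination cells. Lgals3 (galectin 3) stood at 1000.4 CPM in control, 1612 in anti-PD-1, 1548 in anti-CTLA-4 and 2006 in combination cells, with ratios of 0.69 (0.54 to 0.84) in anti-PD-1, 0.63 (0.49 to 0.77) in anti-CTLA-4 and 1.00 (0.88 to 1.13) in combination cells. Macrophages express Lgals3 too, and its ratios were 0.62, 0.63 and 1.01 without the myeloid-positive cells. Klf2 stood at 45.7 CPM in control, 146 in anti-PD-1, 134 in anti-CTLA-4 and 294 in combination cells, with ratios of 1.66 (1.06 to 2.33) in anti-PD-1, 1.53 (0.94 to 2.19) in anti-CTLA-4 and 2.66 (2.15 to 3.27) in combination cells, and of 2.55, 2.54 and 3.48 over the cells with a Cd4 UMI and no Cd8 UMI. It was lowest in control and highest in combination, where lymphoid cluster 1 was also largest. With lymphoid clusters 2 and 4 at equal weight, which leaves lymphoid cluster 1 out, the Klf2 ratios were 2.00, 1.36 and 2.89. Itgb7, an integrin chain, stood at 102, 69.3, 271 and 171 CPM, and 1 cell held 40.0% of its anti-CTLA-4 UMIs. Its ratios were -0.54, 1.40 and 0.74, and 0.73 with anti-CTLA-4 without that cell. Cxcr3, a chemokine receptor of T helper 1 cells, stood at 121, 48.2, 54.1 and 111 CPM, with ratios of -1.31 (-2.04 to -0.67) in anti-PD-1, -1.15 (-1.78 to -0.57) in anti-CTLA-4 and -0.12 (-0.54 to 0.31) in combination cells. One control cell held 47.6% of the control UMIs, and without the top cells the ratios were -0.57, -0.40 and 0.75. Without the myeloid-positive cells the anti-CTLA-4 ratio was -2.12. Ccr7, the lymph node homing receptor, gave 26, 14, 21 and 11 UMIs. Cd44, an adhesion receptor of antigen-experienced T cells, stood at 108, 108, 105 and 87.2 CPM, with ratios of 0.0049, -0.035 and -0.31. Ly6c2 stood at 164, 258, 294 and 462 CPM, with ratios of 0.66 (0.28 to 1.03) in anti-PD-1, 0.84 (0.50 to 1.20) in anti-CTLA-4 and 1.49 (1.20 to 1.81) in combination cells. It is both a monocyte marker and an effector T cell gene, and without the myeloid-positive cells its anti-CTLA-4 and combination ratios were 1.47 and 2.18.

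Furin, Pim1 and Cdkn1a were higher in all 3 treated libraries. Furin stood at 81.2 CPM in control, 275 in anti-PD-1, 525 in anti-CTLA-4 and 364 in combination cells, with ratios of 1.75 (1.30 to 2.24) in anti-PD-1, 2.68 (2.28 to 3.13) in anti-CTLA-4 and 2.16 (1.76 to 2.60) in combination cells. A Furin UMI was seen in 6.65, 18.9, 22.5 and 23.1% of thinned cells against 6.71% of macrophages. Many cell types express Furin, so macrophages give no background for it. Pim1, a kinase that favours survival and follows cytokine signals, stood at 241 CPM in control, 493 in anti-PD-1, 462 in anti-CTLA-4 and 575 in combination cells, with ratios of 1.03 (0.75 to 1.33) in anti-PD-1, 0.94 (0.66 to 1.23) in anti-CTLA-4 and 1.25 (1.00 to 1.52) in combination cells. Over the wider gate the anti-CTLA-4 ratio was 0.27. Cdkn1a stood at 78.2 CPM in control, 119 in anti-PD-1, 154 in anti-CTLA-4 and 272 in combination cells, with ratios of 0.61 (0.058 to 1.17) in anti-PD-1, 0.97 (0.48 to 1.49) in anti-CTLA-4 and 1.79 (1.37 to 2.25) in combination cells, of which the last 2 were 1.57 and 2.60 without the myeloid-positive cells. Cdkn1a leads lymphoid cluster 2, whose share differed between the libraries, so part of its ratio restates that share. With lymphoid clusters 2 and 4 at equal weight its ratios were 0.27, 0.52 and 1.28. Control was the lowest library for all 3 genes. Bcl2, a survival gene, had a combination ratio of -0.59 (-1.01 to -0.17). The survival and apoptosis list as a whole gave 15 of 26, 18 of 26 and 16 of 26 members above control, with medians of 0.092, 0.071 and 0.11, the last -0.080 over the wider gate.

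Since the subdivisions were weighted differently in each library, the main genes were also compared within lymphoid clusters 2 and 4. Pdcd1 was lower in treated cells of both. In lymphoid cluster 2 it stood at 835, 450.5, 336 and 243 CPM, with ratios of -0.89 (-1.24 to -0.54), -1.31 (-1.67 to -0.97) and -1.78 (-2.10 to -1.46). In lymphoid cluster 4 it stood at 530.0, 299, 318 and 212 CPM, with ratios of -0.82 (-1.25 to -0.42), -0.73 (-1.14 to -0.34) and -1.31 (-1.80 to -0.86). All 6 intervals lay below 0. Furin was higher in both, at 169, 294, 651 and 431 CPM in lymphoid cluster 2 and 42.1, 255, 349 and 216 CPM in lymphoid cluster 4. Its ratios were 0.79 (0.20 to 1.42), 1.93 (1.43 to 2.50) and 1.33 (0.84 to 1.90) in the first and 2.57 (1.77 to 3.53), 3.01 (2.24 to 3.95) and 2.33 (1.51 to 3.30) in the second. Pim1 ratios were 1.14 (0.71 to 1.60), 0.98 (0.57 to 1.43) and 1.16 (0.78 to 1.59) in lymphoid cluster 2. In lymphoid cluster 4 they were 1.07 (0.56 to 1.59), 0.76 (0.22 to 1.30) and 1.23 (0.74 to 1.73). Cd3e was lower in both, with ratios of -0.36 (-0.63 to -0.10), -0.72 (-0.98 to -0.46) and -0.73 (-0.96 to -0.50) and of -0.25 (-0.50 to -0.0022), -0.40 (-0.66 to -0.14) and -0.61 (-0.89 to -0.35).

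Hilpda stood at 135, 427, 785 and 505 CPM in lymphoid cluster 2 and 98.2, 129.8, 189 and 276 CPM in lymphoid cluster 4. Its ratios were 1.64 (1.05 to 2.31), 2.52 (1.97 to 3.16) and 1.88 (1.34 to 2.51) in the first and 0.41 (-0.35 to 1.15), 0.94 (0.27 to 1.63) and 1.48 (0.88 to 2.13) in the second, where the anti-PD-1 interval included 0. Bhlhe40 stood at 381, 482, 888 and 576 CPM and 266, 325, 486 and 407 CPM, and the anti-PD-1 interval included 0 in each. Csf2 was mainly a gene of lymphoid cluster 2, with 96.6, 458, 488 and 94.7 CPM there and 25.2, 56.3, 86.1 and 50.9 CPM in lymphoid cluster 4. Within lymphoid cluster 2 control and combination were thus at about the same level and both single-antibody libraries above them. Klrc1 was mainly a gene of lymphoid cluster 4, with 864, 549.7, 546 and 382 CPM there and 309, 317, 210.2 and 159 CPM in lymphoid cluster 2. Its ratios within lymphoid cluster 4 were -0.65 (-0.96 to -0.35), -0.66 (-0.97 to -0.36) and -1.17 (-1.53 to -0.83). The lower Klrc1 level was therefore present within that subdivision as well as in its share. Ctla4 stood at 280.0, 313, 388 and 469 CPM in lymphoid cluster 2 and 101, 104, 176 and 153 CPM in lymphoid cluster 4. Lag3 was highest with anti-PD-1 in both, at 1111, 1747, 902 and 761 and 679, 1065, 706 and 458 CPM. Ifng stood at 285, 509, 347 and 365 and 81.3, 90.9, 64.5 and 115 CPM.

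**Figure D5:**
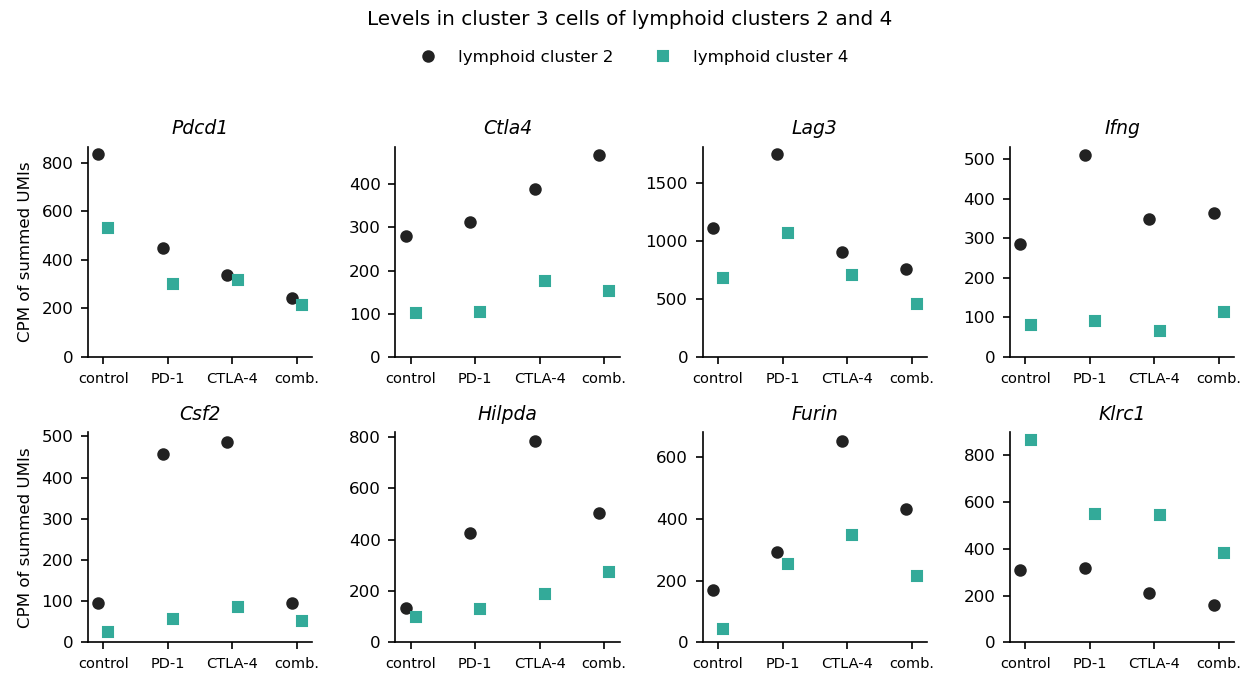
Level in CPM of summed UMIs (linear y axes from 0) of 8 genes in cluster 3 cells of lymphoid cluster 2 (circles) and lymphoid cluster 4 (squares) in the 4 libraries (x axis; PD-1, CTLA-4 and comb. name the treated libraries). Pdcd1 is highest in control and Furin lowest in control in both subdivisions, and Csf2 in lymphoid cluster 2 stands at 458 CPM with anti-PD-1 and 488 with anti-CTLA-4, against 96.6 in control and 94.7 in combination.

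Over the lists, the subdivisions differed. The T cell receptor induced list had medians of 0.30, 1.07 and 0.74 within lymphoid cluster 2 and 0.063, 0.37 and 0.062 within lymphoid cluster 4. The glycolysis and hypoxia list had 0.27, 0.47 and 0.51 and 0.0020, 0.033 and 0.15. Both lists were thus above control within lymphoid cluster 2 and much nearer to it within lymphoid cluster 4, where the anti-CTLA-4 median of the first list was the exception. The difference between the subdivisions was not tested.

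Of the remaining lists, several lay close to the all-gene median. Interferon-induced genes gave 20 of 32, 22 of 32 and 19 of 35 measured members above control, with medians of 0.060, 0.15 and 0.10. Over the wider gate of all 5 T cell clusters the anti-CTLA-4 median was -0.072. Members lay on both sides of control in the combination, where the ratio was 0.87 (0.30 to 1.51) for Isg15, a ubiquitin-like modifier, 0.92 (0.42 to 1.47) for Irf1 and -1.45 (-2.29 to -0.68) for Iigp1, a GTPase against intracellular pathogens. Ifi27l2a, an interferon-induced gene, stood at 962, 537, 1284 and 847 CPM, with ratios of -0.84 (-1.05 to -0.64) in anti-PD-1, 0.42 (0.27 to 0.57) in anti-CTLA-4 and -0.18 (-0.33 to -0.035) in combination cells. Leaving out the myeloid-positive cells, the combination ratio was 0.094. Ifitm1, an antiviral membrane protein, stood at 2009.6, 2752, 1712 and 1349 CPM, with ratios of 0.45 (0.35 to 0.56) in anti-PD-1, -0.23 (-0.35 to -0.11) in anti-CTLA-4 and -0.57 (-0.68 to -0.47) in combination cells. With lymphoid clusters 2 and 4 at equal weight the last 2 were 0.016 and 0.042. MHC class I genes gave medians of 0.13, 0.032 and 0.052, and the combination ratio was 0.65 (0.31 to 1.02) for H2-Q4 and 0.49 (0.30 to 0.67) for H2-T22. Chemokine receptors gave -0.14, -0.14 and -0.12 (0.074, 0.15 and 0.36 with cells thinned), cytokine receptor and STAT genes -0.028, -0.19 and -0.16, and respiratory chain genes 0.059, 0.072 and -0.037. The cell cycle list gave -0.28, 0.080 and 0.056 over 11, 12 and 15 measured members, and an anti-PD-1 median of 0.27 over the wider gate.

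Lists of other helper states rested on few measured members. The follicular helper list gave 4 of 11, 4 of 10 and 6 of 13 above control, the regulatory T cell list 8 of 15, 10 of 16 and 9 of 18, and the naive and memory list 4 of 9, 6 of 11 and 6 of 11. The T helper 2 list had 2 of 5, 1 of 4 and 4 of 9 measured members above control and the T helper 17 list 1 of 2, 1 of 2 and 3 of 4. Izumo1r, a folate receptor family member shared by regulatory and follicular cells, gave 61, 29, 15 and 41 UMIs, with ratios of -0.68 (-1.38 to -0.028) in anti-PD-1, -1.88 (-2.84 to -1.08) in anti-CTLA-4 and -1.17 (-1.79 to -0.58) in combination cells. With cells thinned the anti-CTLA-4 ratio was -1.17. All 3 intervals lay below 0 for it. Mki67 gave 9, 5, 3 and 10 UMIs.

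Mitochondrial and ribosomal transcripts, which follow cell quality and growth, also differed. Mitochondrially encoded genes gave 5 of 12, 3 of 11 and 2 of 11 measured members above control, with medians of -0.25, -0.33 and -0.45. Over the wider gate of all 5 T cell clusters the anti-PD-1 median was 0.0047. mt-Nd1, a subunit of complex I, stood at 1247, 1025, 991 and 734 CPM, with ratios of -0.28 (-0.44 to -0.12) in anti-PD-1, -0.33 (-0.48 to -0.18) in anti-CTLA-4 and -0.76 (-0.91 to -0.62) in combination cells. mt-Cytb stood at 1259, 871, 684 and 763 CPM, with ratios of -0.53, -0.88 and -0.72, and mt-Co3 at 1421, 1015, 1003 and 885 CPM, with ratios of -0.48, -0.50 and -0.68. Cytosolic ribosomal protein genes gave 2 of 30, 24 of 30 and 26 of 30 above control, with medians of -0.18, 0.12 and 0.095. The anti-PD-1 library was thus the one in which most ribosomal genes lay below control. Their part in the other ratios was not tested.

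Combination cells were last set against the cells that had received 1 antibody. Pdcd1 was lower than with either, at -0.74 (-1.03 to -0.46) against anti-PD-1 and -0.52 (-0.81 to -0.24) against anti-CTLA-4. Lag3 had ratios of -1.16 (-1.32 to -1.0) and -0.36 (-0.53 to -0.18) in the same order, and Tnfrsf4 of -0.52 (-0.67 to -0.36) and -0.28 (-0.44 to -0.13). Klrc1 had ratios of -0.93 (-1.21 to -0.66) and -0.66 (-0.93 to -0.38), and Klrd1 of -0.97 (-1.43 to -0.52) and -1.0 (-1.44 to -0.58). Cd3g had ratios of -0.38 (-0.49 to -0.27) and -0.30 (-0.41 to -0.20). All 6 of these genes were lower with both antibodies than with either alone. For Lag3 and Tnfrsf4 the distance to anti-CTLA-4 was small without the myeloid-positive cells. There the Lag3 ratios to control were -0.19 in combination and -0.11 in anti-CTLA-4 cells, and those of Tnfrsf4 were -0.22 and -0.11. A pair of genes were higher than with either: Klf2, with ratios of 1.00 (0.64 to 1.39) and 1.13 (0.78 to 1.5) (the second 1.95 without the myeloid-positive cells), and Ctla4, with 0.74 (0.44 to 1.06) and 0.28 (0.028 to 0.55). A further pair lay between the single antibodies: Bhlhe40, with ratios of 0.28 (0.049 to 0.52) and -0.48 (-0.67 to -0.29), and Furin, with 0.40 (0.12 to 0.69) and -0.53 (-0.74 to -0.31). For Furin, only the cells with a Cd4 UMI and no Cd8 UMI gave 0.045 against anti-CTLA-4. Over all genes with 50 or more counts, 9.34% were at least 1.5-fold higher and 10.9% at least 1.5-fold lower than with anti-PD-1. Against anti-CTLA-4 these shares were 9.8% and 7.59%. The glycolysis and hypoxia list gave 22 of 28 members above anti-PD-1, with a median of 0.34, and the ribosomal list 29 of 30, with a median of 0.28.

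Many of the most extreme ratios rested on 1 cell and are named without a ratio. In control, 1 cell held 96.2% of the Gstm4 UMIs, 81.4% of Rnase4, 85.2% of Dab2, 80.7% of Rad54l2, 77.0% of Caml and 58.9% of Prkab1. In anti-PD-1, 1 cell held 90.6% of Chil1, 91.7% of Atxn7l3 and 85.5% of Msra. In anti-CTLA-4, the same held for Mpp6, Rpap3, Thoc6, Eif4ebp2, Pja2, Txlng and Ncoa7, with 60.7% to 92.9% in 1 cell. In the combination, it held for Zfp212, Myc, Zfp938, Senp1, Foxn2 and Gzmf, with 57.1% to 83.9%. The other two extremes were spread over more cells. Mt2, a metal-binding protein, gave 6, 4, 69 and 56 UMIs. Arg1, a macrophage enzyme of arginine metabolism, gave 4, 40, 15 and 136 UMIs. Lyz2, the macrophage lysozyme, stood at 662, 1757, 371 and 646 CPM, with an anti-PD-1 ratio of 1.41 (1.24 to 1.57) and of 0.061 without the myeloid-positive cells.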

How the data were processed

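The authors deposited 1 matrix of unnormalized UMI counts per library and 2 tables of cells with cluster numbers. The submitters' processing notes name Cell Ranger, Seurat and mm10, with no versions or roles. Each matrix held 27998 genes. Cells entered by library and barcode, and every cluster 3 cell of the table was used, with no further filter. No doublet caller was run, and the labels do not say whether the authors removed doublets. UMIs of a gene were summed over the cells of a library and divided by their total (CPM), with exact Poisson 95% intervals. Ratios are log2 with 0.5 added to each count and exact binomial intervals. Shares of cells have exact binomial intervals, and ratios of shares have log-scale intervals. Cells were thinned to 1000 UMIs for shares of cells with a UMI, which left out 16 of the 1215 cells. List medians used members with 20 or more counts in both libraries together, and shares past 1.5-fold used genes with 50 or more. With 1 library a group no test was made. Analyses used Python 3.11.15, numpy 2.4.6, scipy 1.17.1 and pandas 2.3.3, and the scripts were tested on simulated data.

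The members and lists were chosen with earlier results of these data known. Named genes are a set of 44 key genes, the 5 highest and lowest per comparison, up to 4 members per list by the combination ratio, and the genes that lead the cluster or its subdivisions. Those resting on 1 cell or few counts are named with no ratio, and some named by the rule are not reported here. Lyz2, C1qb, Apoe, Ctsw, Csf1, Furin, Cd200, Klrc1, Klrc2 and Klrd1 were also chosen after their values were seen. Alternatives were another scaling, thinning, a mean over cells, other sets of cells, other minimum counts and another added count.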

Additional observations from a re-analysis of the deposited data

Results flagged for a closer look

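Between the subdivisions of cluster 3, 3 genes had an antibody ratio on opposite sides of control, with the interval of each ratio on its own side of 0. The difference between the subdivisions was not tested, since each rested on 1 library a group. Tnfrsf4 (OX40), a costimulatory receptor, stood in the anti-PD-1 library at a log2 ratio to control of 0.46 (0.24 to 0.70) in lymphoid cluster 2 and -0.59 (-0.94 to -0.27) in lymphoid cluster 4. Its levels were 1217, 1680.5, 1264 and 1001 CPM and 701, 463, 546 and 369 CPM in the 2 subdivisions, with the libraries in the order used above. Cxcr3, a chemokine receptor of T helper 1 cells, stood in the combination library at 1.07 (0.26 to 2.08) in lymphoid cluster 2 and -0.96 (-1.85 to -0.20) in lymphoid cluster 4, where its levels were 62.8, 50.9, 55.5 and 136 CPM and 151, 26.0, 34.4 and 76.4 CPM. A single cell held 47.6% of all control Cxcr3 UMIs. That is more than all control cells outside lymphoid cluster 4 held, so it lay in that cluster. The direction of the ratio there thus depends on 1 cell. Over cluster 3 without the top cells, the combination ratio was 0.75. Cd69, an early activation and residency marker, stood in the anti-CTLA-4 library at 1.93 (1.22 to 2.80) in lymphoid cluster 2 and -1.23 (-2.16 to -0.45) in lymphoid cluster 4, with levels of 82.1, 102, 321 and 245 CPM and 165, 95.2, 68.8 and 165 CPM. Single cells held 32.6% of its control UMIs and 21.3% of its anti-CTLA-4 UMIs. The control cell held more than lymphoid cluster 2 did, and more than the lymphoid clusters other than 2 and 4 did together. It therefore lay in lymphoid cluster 4, whose ratio rests in large part on that cell. The ratio within lymphoid cluster 4 without it was not computed.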

How the results depend on the processing

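The main limit is that each group had 1 library, so the spread between animals was not measured and intervals cover counting error only. Depth is a further limit: cluster 3 gave 221 to 420 cells and 519203 to 1031665 UMIs a library. No paired analysis was possible because each group had 1 library, which also leaves no replicate to leave out. All 1215 cells are also in the lymphoid table, so that setting gave the values of the report. Weighting lymphoid clusters 2 and 4 equally and leaving out each gene's top cell were chosen after seeing the data. With size factors the all-gene median lay within 0.0121 of 0 on the log2 scale.

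Of the share of cluster 3, the log2 ratio to control was 0.089 with anti-PD-1 and 0.076 with anti-CTLA-4 over T cells, against -0.43 and -0.26 over all listed cells, and with the combination it was 0.017 over cells with few myeloid UMIs, against 0.29. Over genes with 100 or more counts, the percent at least 1.5-fold lower was 6.28 with anti-PD-1 and 7.27 with anti-CTLA-4, and the percent at least 1.5-fold higher in the combination was 6.10 against anti-PD-1 and 5.98 against anti-CTLA-4. Of 70 list medians against control, 39 took the other sign under at least 1 alternative, and 17 of the 43 farther than 0.1 from 0 did so. Among those, the T cell receptor induced list with anti-PD-1 was -0.074 over the CD4 gate of all 5 T cell clusters, against 0.46, and the regulatory T cell list was -0.51 with anti-CTLA-4 and -0.76 in the combination library there. Single genes turned under some sets of cells, and the cause was not tested. Without myeloid-positive cells, the ratio was 0.11 for Gzmb with anti-PD-1 and 0.094 for Ifi27l2a with the combination. With Cd4 UMIs and no Cd8 UMI required, Gzmb was 0.84 with anti-PD-1 and 0.65 with anti-CTLA-4, Lyz2 0.43 with anti-CTLA-4, Ifi27l2a 0.15 with the combination, and Furin 0.045 in the combination against anti-CTLA-4. With the same gate over all 5 T cell clusters, Klrc2 was 0.092 and Tnfrsf9 -0.053 with anti-PD-1. There, anti-CTLA-4 gave -0.39 for Ctla4, -0.0080 for Ifi27l2a and -1.52 for Ikzf2. The combination gave -0.28 for Ctla4, -0.25 for Fosb and -0.23 for Tnf, and 0.042 for Furin against anti-CTLA-4. At equal weight of lymphoid clusters 2 and 4, Gzmb was 0.49 and Junb -0.023 with anti-PD-1, Gzmb 0.43 and Ifitm1 0.016 with anti-CTLA-4, and Ifitm1 0.042 with the combination. With cells thinned, Icos was 0.021 with anti-CTLA-4.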
